A study of Mus musculus with 6 samples.

Results

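Cxcr2+ neutrophils are one of the cell classes that the authors named in single cells from mouse prostate tumours. Their members were taken as every deposited cell whose final class label, with spaces removed, reads Neu_Cxcr2+. This gave 817 of the 5749 deposited cells, 426 from the authors' cluster 5 and 391 from their cluster 7. All tumours grew from PPS-ICBR, a mouse prostate cancer line that resists immune checkpoint blockade, in C57Bl6 mice. The standard diet group (SD) ate normal chow, and the butanediol group (BD) ate chow supplemented with 1,3-butanediol, a compound that the liver turns into the ketone body beta-hydroxybutyrate. The sample labels list 80 mL butanediol, 120 mL water, 198 g chow and 2 g saccharine for it. The part of the saccharine in the diet comparisons was not tested. The blockade group (ICB) ate normal chow and received antibodies against PD-1 and CTLA-4, the inhibitory receptors of T cells, and the BD+ICB group had both the butanediol chow and the antibodies. The listed antibody dose was 0.2 mg. There were 3 tumours in each of the 4 groups, the labels identify tumours rather than mice, and the line is a single one, so p-values describe the spread between these tumours. Cells came from the leukocyte layer of a density gradient. SD and BD tumours were pooled into 1 droplet library and ICB and BD+ICB tumours into the other, so blockade and library cannot be told apart. Diet also went with tumour size: the listed sizes, whose unit is not stated, were 870 to 2348 in SD, 172 to 203 in BD, 289 to 1116 in ICB and 23 to 90 in BD+ICB.

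Neutrophils are short-lived granulocytes made in the bone marrow under granulocyte colony-stimulating factor. They leave it with packed granules and follow chemokines such as Cxcl1 and Cxcl2, which bind the receptor Cxcr2, into inflamed tissue and tumours. In tumours they are known to release alarmins, proteases and cytokines, and some of their states restrain T cells through Arg1, prostaglandins or the checkpoint ligand Cd274 (PD-L1). Hcar2, a receptor on neutrophils, binds beta-hydroxybutyrate and nicotinic acid.

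The numbers of Cxcr2+ neutrophils differed widely between tumours. The SD tumours held 72, 72 and 135 of them, the ICB tumours 55, 108 and 233, the BD+ICB tumours 13, 24 and 70, and the BD tumours 8, 15 and 12. The class carried 2255060 unique molecular identifiers (UMIs, each a counted mRNA molecule), with a median of 2393 UMIs and 905 genes per cell, against 6263 UMIs in CD8 T cells and 7348 over all deposited cells. Neutrophils hold little mRNA, so their values rest on fewer molecules than those of the T cells. None of the 817 cells shared a barcode with a deposited cell of the other library, and 5 had a barcode that also occurs in the other library's gene matrix. Only 5 cells exceeded 10000 UMIs. Hashtags, the antibody-linked tags that mark each cell's tumour, were much weaker on the butanediol tumours: the median total per Cxcr2+ neutrophil was 1520 to 1616 in SD and 1782 to 2110 in ICB, but 514.5 to 580 in BD and 604 to 995.5 in BD+ICB. No deposited cell had a hashtag total under 501. To lift that limit, another hashtag rule was used: a top tag count of at least 10 and at least 3 times the second. Droplets outside the deposited cells that met it, and filters on genes and mitochondrial UMIs, were added. They were given a class by their nearest deposited neighbours. Deposited cells that failed the rule, 80 Cxcr2+ neutrophils among them, were left out. Without added droplets this is the stricter hashtag rule below. With the limit lifted the BD tumours had 35, 49 and 25 Cxcr2+ neutrophils, of which 22.9%, 28.6% and 40.0% were deposited cells. In the SD tumours 87.8% to 93.8% were deposited cells. The BD values below therefore rest on a minority of the neutrophils that its tumours may have given.

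The label was borne out by its markers. Pooled over all its cells, the class had a Cxcr2 level of 663 CPM (UMIs of the gene scaled to a common total of UMIs), against 264 in the authors' Hilpda+ neutrophils (519 cells), 507 in their Ifit+ neutrophils (110 cells) and at most 9.56 in any other class. S100a8 and S100a9, whose products form the alarmin calprotectin, reached 31107 and 46810 CPM, and at most 589 and 582 outside the neutrophils. They were at 18254 and 24080 CPM in Hilpda+ and at 21875 and 35747 CPM in Ifit+ neutrophils. Mmp9, a gelatinase stored in late granules, was at 768 CPM, against 227 in Hilpda+ and 321 in Ifit+ neutrophils and at most 19.9 elsewhere. Retnlg, a resistin-like secreted protein, was at 3352 CPM, against 2331 in Hilpda+ and 2883 in Ifit+ neutrophils and at most 63.2 outside the neutrophils. It was detected in 54.6% of the class and 62.2% of Hilpda+ neutrophils. Csf3r, the receptor for granulocyte colony-stimulating factor, stood at 963 CPM and Ly6g, the usual surface marker of mouse neutrophils, at 43.9 CPM. Some listed neutrophil markers were not highest here. Slpi was at 2887 CPM, against 3571 in Hilpda+ and 4027 in Ifit+ neutrophils. Clec4d was at 2485 CPM, against 2553 and 2655, and G0s2 at 3100 CPM, against 3421 in Ifit+ neutrophils. The rest of the listed neutrophil markers were highest in this class. A Cxcr2 UMI was seen in 65.4% of the cells, against 1.25% of CD8 T cells, which should lack it. These genes helped to define the class, so the differences are given without a test.

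Transcripts of granule proteins made by immature granulocytes were absent or sparse. Mpo and Elane, primary granule enzymes made by marrow progenitors, had 0 UMIs among the class's 2255060. Of the secondary granule transcripts, made at the next stage, Ltf was at 24.4 CPM, Ngp at 49.7 CPM and Camp at 13.7 CPM. Chil3, a chitinase-like protein of immature neutrophils and monocytes, stood higher, at 464 CPM with a UMI in 15.7% of the cells, against 1138 CPM in Vcan+ monocytes. The most abundant transcript was that of Fth1, the ferritin heavy chain, at 48508 CPM, followed by S100a9, by Gm42418, a gene model that overlaps ribosomal RNA, and by Cxcl2 at 32277 CPM. Il1b, the precursor of interleukin-1 beta, was at 6626 CPM and present in 94.9% of the cells.

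Markers of other cell types were summed per tumour, and some of the sums differed between groups. Summed T and NK cell markers ran from 0 to 91.2 CPM per tumour, with Ncr1 and Klrb1c at 0, and B and plasma cell markers from 0 to 70.2 CPM, with 5 of 8 at 0. Eosinophil, mast cell and basophil markers, with Prg2, Ear2, Mcpt8 and Ms4a2 at 0, ran from 21.1 to 49.3 CPM in SD, 0 to 70.2 CPM in BD, 2.92 to 29.8 CPM in ICB and 0 to 5.05 CPM in BD+ICB. Monocyte markers, of which Chil3 made up 51.6%, ran from 573 to 2386 CPM in SD, 140 to 3619 CPM in BD, 443 to 566 CPM in ICB and 449 to 710 CPM in BD+ICB, so that every ICB tumour lay below every SD tumour. This order was due to Chil3. Without it the list ran from 332 to 485 CPM in SD and from 419 to 534 CPM in ICB, and these ranges overlapped. Fibroblast markers were also lower in every ICB tumour than in every SD tumour, at 921 to 1010 CPM in SD and 692 to 885 CPM in ICB, against 631 to 1094 CPM in BD and 722 to 1102 CPM in BD+ICB. The part of these cell types in the differences between groups was not tested. Col1a1 was detected in 33.2% of the class and 36% of CD8 T cells. The summed macrophage list was higher in BD+ICB (2914 to 4490 CPM) than in ICB (1497 to 2391 CPM), but 65.7% of it was Spp1. Without Spp1 it ran from 481 to 995 CPM in BD+ICB and from 520 to 988 CPM in ICB, and these ranges overlapped.

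The class is made of a pair of states, the authors' clusters 5 and 7, and cells of both were found in all 12 tumours. They were compared in the 8 tumours with at least 10 cells of each. No BD tumour is among these, nor is BD+ICB replicate 1. Cluster 7 was the cytokine-rich one and cluster 5 the one richer in granule and alarmin transcripts. Because clustering used these genes, the differences are described and not tested, as the median over tumours of the log2 difference in CPM with 10 added. Higher in cluster 7 were Il23a, a subunit of interleukin-23, by 2.20 (1.63 to 3.67 over the tumours), Tnf by 1.91 (1.04 to 2.51), Ccl3, a chemokine for monocytes and T cells, by 1.88 (0.47 to 3.76), and Il1a by 1.32 (0.90 to 2.56). In CPM, Tnf averaged 2120 in cluster 7 and 637 in cluster 5, and Il1a averaged 1085 and 331. The anti-apoptotic A1 genes Bcl2a1a and Bcl2a1b were higher by 1.38 and 1.3. These copies are close to identical, so reads may have been split between them. Cdkn1a, a cell cycle inhibitor, was higher by 1.3 and Csf1, the macrophage growth factor, by 1.13. Early targets of NF-kB, the transcription factor behind many of these genes, were also higher in 8 of 8 tumours, among them Icam1 (0.97), Ptgs2 (0.71), Cxcl2 (0.58) and Nfkbia (0.54).

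Cluster 5 had the opposite profile. Retnlg was lower in cluster 7 than in cluster 5 by a log2 difference of -1.72, S100a9 by -1.28 and S100a8 by -1.10, each in 8 of 8 tumours. S100a9 averaged 69532 CPM in cluster 5 and 30759 CPM in cluster 7. Wfdc17, a secreted protein of activated granulocytes (-1.56), Lrg1, a secreted glycoprotein (-1.18), Ifitm1 (-1.16), the shedding protease Adam8 (-1.07), the ectonucleotidase Entpd1 (-1.04) and Pglyrp1, a granule protein that binds bacterial cell walls (-1.04), followed the same order. Cxcr2 itself (-0.49) and Csf3r (-0.58) were lower in cluster 7 in 8 of 8 tumours. Cluster 7 cells also carried slightly more mRNA, with a median of 2643 UMIs and 1026 genes against 2264 UMIs and 822 genes.

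**Figure D1:**
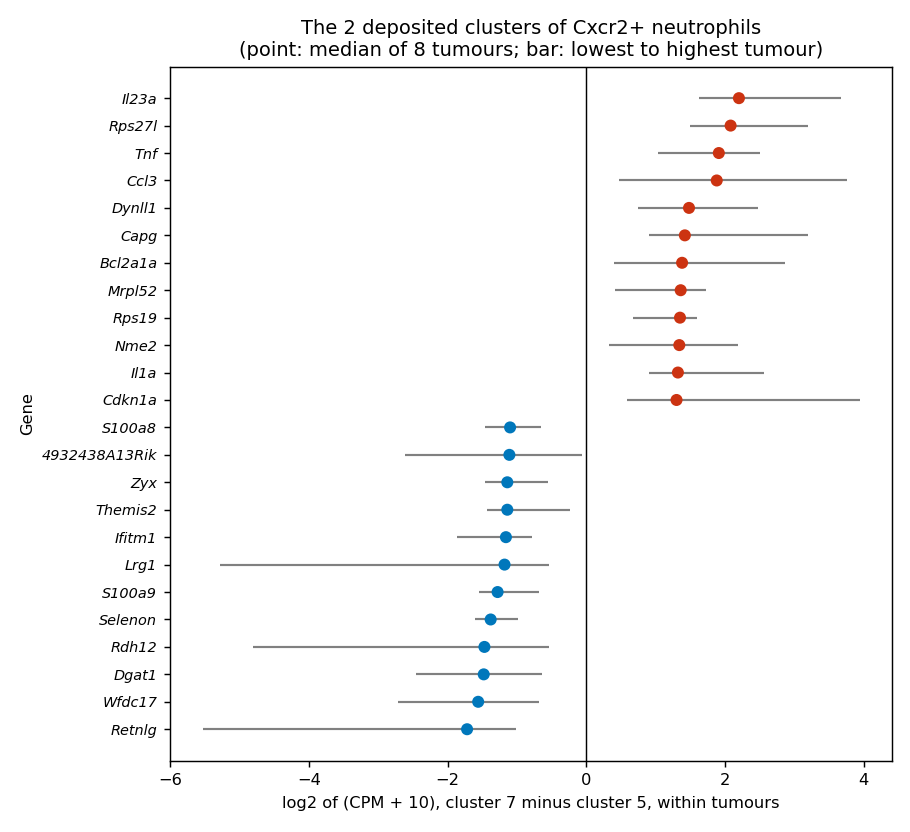
Genes that differed most between the authors' clusters 7 and 5 of Cxcr2+ neutrophils. Each point is the median over 8 tumours of the log2 difference in CPM with 10 added (horizontal axis), and each bar runs from the lowest to the highest tumour. No BD tumour is among the 8. Il23a, Tnf, Ccl3 and Il1a lie to the right of 0 in 8 of 8 tumours, and Retnlg, S100a9 and S100a8 to the left in 8 of 8.

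Without blockade, cluster 7 made up 52.2% ± 15.1 of the class on normal chow and 56.4% ± 20.7 on butanediol chow (SD, n = 3 each). With blockade these shares were 36.1% ± 20.5 and 40.2% ± 15.7 (SD, n = 3 each). The diet difference averaged over both libraries was 4.13 percentage points (p = 0.605 by a two-sided exact permutation test that exchanged diets inside each library, adjusted p = 0.605 over 3 shares). The balance between the states differed more within groups than between diets.

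The genes that vary from cell to cell were also examined, with each cell's count set against the mean of its own tumour and its depth. Of 2814 genes at 0.1 UMI per cell or more, S100a9 and S100a8 had the largest residual variance around a count model (36.6 and 27.0, against a median of 1.19). Their residuals around the tumour means were correlated at 0.88 over the 817 cells, and both were weakly negatively related to Ccl3 (-0.22 and -0.19). Ccl3 went with Cxcl2 instead (0.58). Some transcripts were confined to few cells: the top 10% of cells held 81.9% of all Ccl4 UMIs, 97.9% of those of Saa3, an acute-phase apolipoprotein, and 100% of those of Stfa1, a stefin protease inhibitor, which was detected in 8.20% of the cells. Retnlg was intermediate, with 71.8% of its UMIs in the top 10%. These correlations describe cells that share libraries and depth, and carry no test.

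Cxcr2+ neutrophils were compared with Hilpda+ neutrophils of the same tumour, in the 8 tumours with at least 10 cells of each class. BD+ICB replicate 2, which was in the cluster comparison, is not among them: 24 of its 28 neutrophils were Cxcr2+. Cxcr2+ neutrophils had lower levels of hypoxia-induced genes and higher levels of genes of circulating neutrophils. Lower in them were Ero1l (-2.66), an oxidase of the endoplasmic reticulum, the mitophagy receptor Bnip3 (-2.28), the lipid droplet protein Hilpda (-2.10), the oxygen sensor Egln3 (-2.01), and the glycolytic enzymes Hk2 (-1.88) and Ldha (-1.78), each in 8 of 8 tumours. Ldha averaged 590 CPM in Cxcr2+ and 2031 CPM in Hilpda+ neutrophils. Higher were Ifitm6 by 2.51, Pglyrp1 by 2.02, haptoglobin (Hp) by 1.92, Mmp9 by 1.77 and Cxcr2 by 1.10. Against Ifit+ neutrophils, which were numerous enough in 4 tumours, the type I interferon targets Ifit2 (-5.55), Ifit3 (-4.46), Ifit1 (-4.29), Rsad2 (-4.03) and Isg15 (-2.46) were lower in 4 of 4 tumours. Ifit1 averaged 76.2 CPM in Cxcr2+ and 1829 CPM in Ifit+ neutrophils. Lrg1 (1.45), Lcn2 (0.86), a siderophore-binding granule protein, and Mmp9 (0.84) were higher. Class definitions used these genes, and no test was made.

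The question of the design is how the ketogenic supplement and blockade, alone and together, changed the tumours' cells. As a share of all deposited cells, Cxcr2+ neutrophils were fewer on butanediol. The SD tumours had 17.3%, 25.9% and 25.9%, the BD tumours 2.64%, 21.4% and 10.3%, the ICB tumours 6.61%, 19.0% and 25.5%, and the BD+ICB tumours 2.28%, 3.69% and 13.8%. The groups overlapped in both libraries. The group means were 23% ± 4.96, 11.4% ± 9.45, 17.0% ± 9.60 and 6.58% ± 6.27 (SD, n = 3), and the diet difference averaged over libraries was -11.0 percentage points (exact permutation p = 0.0400, where 0.00500 is the smallest possible, adjusted p = 0.120), which did not pass. Without BD replicate 2 the difference was -13.5 points with an adjusted p of 0.0450 in the same exact test. With the hashtag limit lifted it was -1.85 points (exact permutation p = 0.710), and in the library without blockade its direction turned: 9.92% ± 3.92 in SD and 13.9% ± 12 in BD. That turn was not seen among immune cells, that is, without the mesenchymal and cancer classes. Of deposited immune cells the difference was -13.4 points (exact permutation p = 0.0200, not adjusted). With the limit lifted it was -6.93 points (exact permutation p = 0.205), at -4.44 points without blockade and -9.42 with it. Counting error alone was small beside these differences, with an exact 95% binomial interval of 1.15% to 5.14% for the BD tumour with 2.64%, and it covers counting only.

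Among neutrophils, the 3 classes divided differently. Cxcr2+ cells were 67.3%, 65.5% and 60.5% of neutrophils in SD, 53.3%, 53.6% and 63.2% in BD, 51.9%, 39.9% and 55.9% in ICB and 65.0%, 85.7% and 68.6% in BD+ICB. Every BD+ICB tumour lay above every ICB tumour, while the SD and BD ranges overlapped and BD was lower on average. The group means were 64.4% ± 3.49, 56.7% ± 5.60, 49.2% ± 8.34 and 73.1% ± 11.1 (SD, n = 3). Averaged over libraries, the diet difference was 8.08 points (exact permutation p = 0.270, adjusted p = 0.405). The diet difference was 31.6 points larger under blockade than without it (exact permutation p = 0.0100, adjusted p = 0.0300 over 3 shares). With the hashtag limit lifted that contrast was 21.6 points (exact permutation p = 0.185). These p-values come from exchanging diets inside each library, so they test for no diet effect in either library, not for equal effects.

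**Figure D2:**
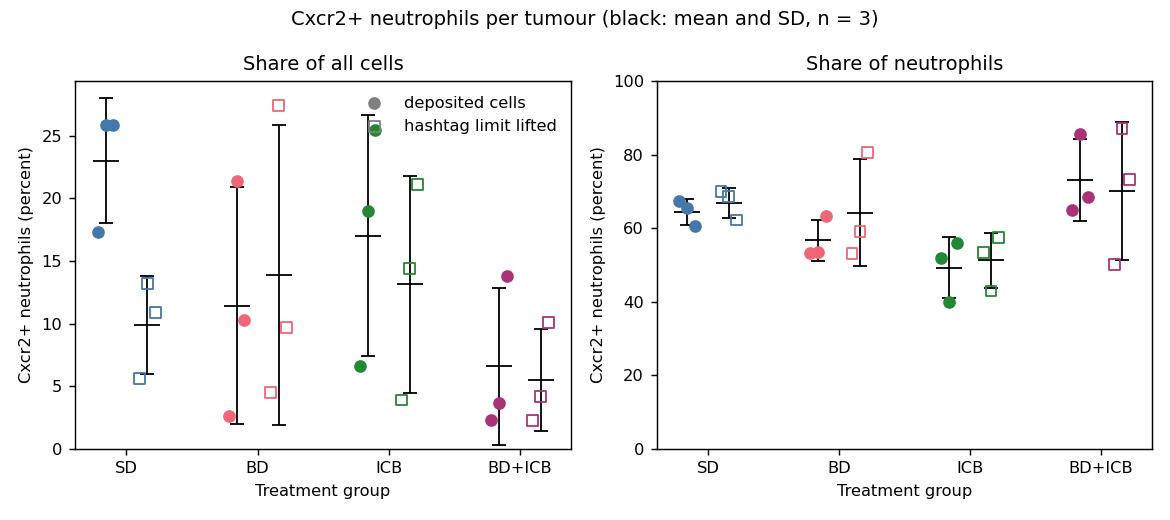
Shares of Cxcr2+ neutrophils per tumour, in percent (vertical axes), by group (horizontal axes). Filled circles are deposited cells and open squares the same tumours with the hashtag limit lifted, each point is 1 tumour, and black marks are the mean and SD of 3. Among deposited cells, as a share of neutrophils all 3 BD+ICB tumours (65.0% to 85.7%) lie above all 3 ICB tumours (39.9% to 55.9%).

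Gene levels were compared between tumours with counts summed over each tumour's Cxcr2+ neutrophils. BD replicate 1, with 8 cells, was left out, so BD has 2 tumours, with 34264 and 24677 UMIs, against 37418 to 670972 UMIs elsewhere. Levels per tumour are CPM scaled by the fit's normalization factors. Fold changes are log2 values from edgeR's quasi-likelihood test, with Benjamini-Hochberg adjustment over the 2961 genes tested. The median of all genes moved with the scaling in BD against SD, from -0.18 with TMM factors to -0.04 with RLE factors.

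Few genes differed by diet. In BD against SD 1 gene passed adjusted p 0.05 (0.0338% of those tested), in BD+ICB against ICB 4 (0.135%), and for the diet effect averaged over both libraries 1 (0.0338%). At an unadjusted p of 0.05 the counts were 189, 263 and 236. Hcar2, the beta-hydroxybutyrate receptor, was the gene called in BD against SD. Its levels were 1106, 1025 and 788 CPM in SD, 340 and 159 CPM in BD, 1434, 1607 and 1765 CPM in ICB and 2710, 2392 and 2581 CPM in BD+ICB. Among these 11 tumours no group overlapped another, but BD replicate 1, which was not in the fit, had 842 CPM before scaling, against 757 to 1053 CPM in SD on that scale. BD was lower than SD by a log2 change of -1.90 (SE 0.37, adjusted p = 0.0403), while BD+ICB was higher than ICB by 0.67 (SE 0.23, adjusted p = 0.283), which did not pass.

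The diet effects on Hcar2 differed between the libraries by 2.57 (SE 0.44, adjusted p = 0.00434), and Hcar2 was the only gene of 2961 (0.0338%) past the threshold for that contrast. The BD value rests on 12 and 4 UMIs in the 2 tumours of the fit. BD replicate 1, the tumour with 8 cells, had 12 Hcar2 UMIs from fewer total molecules, and with it in the fit the BD against SD change was -1.31 (adjusted p = 0.730) and the difference between libraries 2.03 (adjusted p = 0.140). With the hashtag limit lifted these were -0.01 (adjusted p = 0.999) and 0.77 (adjusted p = 0.990). Without BD replicate 3 they were -1.58 (adjusted p = 0.519) and 2.22 (adjusted p = 0.115). The BD against SD call was lost when any one of the 11 tumours was left out, whereas the rise from BD to BD+ICB, 3.29 (SE 0.37, adjusted p = 5.8e-07), passed each time. That rise was 1.49 (adjusted p = 0.0180) with the hashtag limit lifted. Counted in cells, 25.0% to 75.0% of the BD cells, 58.5% to 63.9% of SD, 72.2% to 80.7% of ICB and 91.4% to 95.8% of BD+ICB cells had an Hcar2 UMI. After thinning each cell to 1000 UMIs, these were 6.67% to 75.0%, 38.5% to 52.1%, 52.7% to 64% and 69.2% to 79.2%, with 22 SD, 15 ICB and 2 BD+ICB cells too shallow to enter. In CD8 T cells 3.76% had one, at a median of 6263 UMIs. Among other ketone body genes, 5 of 15 listed were measurable, and none but Hcar2 passed a diet contrast.

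Igfbp6, a binding protein for insulin-like growth factor II, was the gene that fell from ICB to BD+ICB. It stood at 537, 320 and 383 CPM in SD, 368 and 357 CPM in BD, 170, 206 and 146 CPM in ICB and 31.5, 16.2 and 11.8 CPM in BD+ICB. All BD+ICB tumours lay below all others, and all ICB tumours below both groups without blockade. BD+ICB was lower than ICB by a log2 change of -3.43 (SE 0.55, adjusted p = 0.00149), and the diet effect averaged over libraries was -1.80 (SE 0.35, adjusted p = 0.0356). The BD+ICB level rests on 1, 1 and 2 UMIs. Summed over the group, 4 UMIs against 182 in ICB give a ratio of 11.5 (exact 95% interval 4.43 to 42.8, for counting error only). An Igfbp6 UMI was seen in 22.3% to 34.3% of the cells of the ICB tumours and 2.86% to 7.69% of those of the BD+ICB tumours, and in 0.894% of CD8 T cells. After thinning to 1000 UMIs it was seen in 9.91% to 13.5% of the ICB cells and in 0 of 105 BD+ICB cells, a count of 0 that allows a share of up to 2.86%. The contrast with ICB was -2.95 (adjusted p = 0.0927) without BD+ICB replicate 3. The averaged effect was -1.70 (adjusted p = 0.0706) with RLE factors and -1.75 (adjusted p = 0.315) without the 174 cells that had a C1q UMI. The averaged call was kept only when SD replicate 2, BD replicate 3 or ICB replicate 3 was the tumour left out. Among the deposited classes the pooled level was highest in the neutrophils, at 208 CPM in Cxcr2+ and 147 CPM in Hilpda+ cells, against 50.6 CPM in Vcan+ monocytes, the highest other class, and 14.7 CPM in mesenchymal cells. The difference in diet effects, -3.25 (adjusted p = 0.0981), did not pass.

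Of the 3 genes that rose from ICB to BD+ICB, Il1rn encodes the interleukin-1 receptor antagonist, Ifi47 an interferon-inducible GTPase and Bcl2a1b an A1 survival protein. Il1rn was at 1499, 1638 and 2130 CPM in ICB and 3907, 5495 and 2900 CPM in BD+ICB, and its change was 1.21 (SE 0.26, adjusted p = 0.0344). Ifi47 was at 217, 126 and 157 CPM in ICB and 378, 614 and 449 CPM in BD+ICB, with a change of 1.57 (SE 0.32, adjusted p = 0.0251). Bcl2a1b was at 386, 634 and 885 CPM in ICB and 2017, 2586 and 1258 CPM in BD+ICB, with a change of 1.58 (SE 0.29, adjusted p = 0.0133). In all 3 the groups did not overlap, and without blockade the SD and BD tumours overlapped in Il1rn and Bcl2a1b. Each call was lost without BD+ICB replicate 2 (adjusted p = 0.277 for Il1rn, 0.156 for Ifi47 and 0.150 for Bcl2a1b) and without ICB replicate 2 (0.250, 0.250 and 0.147). Without ICB replicate 1, Il1rn (0.203) and Bcl2a1b (0.0817) were lost. Without BD+ICB replicate 1, Il1rn (0.0898) and Bcl2a1b (0.0630) were lost too. Ifi47 was lost without BD+ICB replicate 3 (0.0687) and Il1rn without SD replicate 3 (0.0620). With the hashtag limit lifted none of the 3 passed (0.544 for Il1rn, 0.531 for Ifi47 and 0.107 for Bcl2a1b), and with no filter on low counts Il1rn (0.93, adjusted p = 0.287) and Ifi47 (0.0782) did not. Il1rn was also lost with BD replicate 1 in the fit (0.0609) and without C1q cells (0.272).

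**Figure D3:**
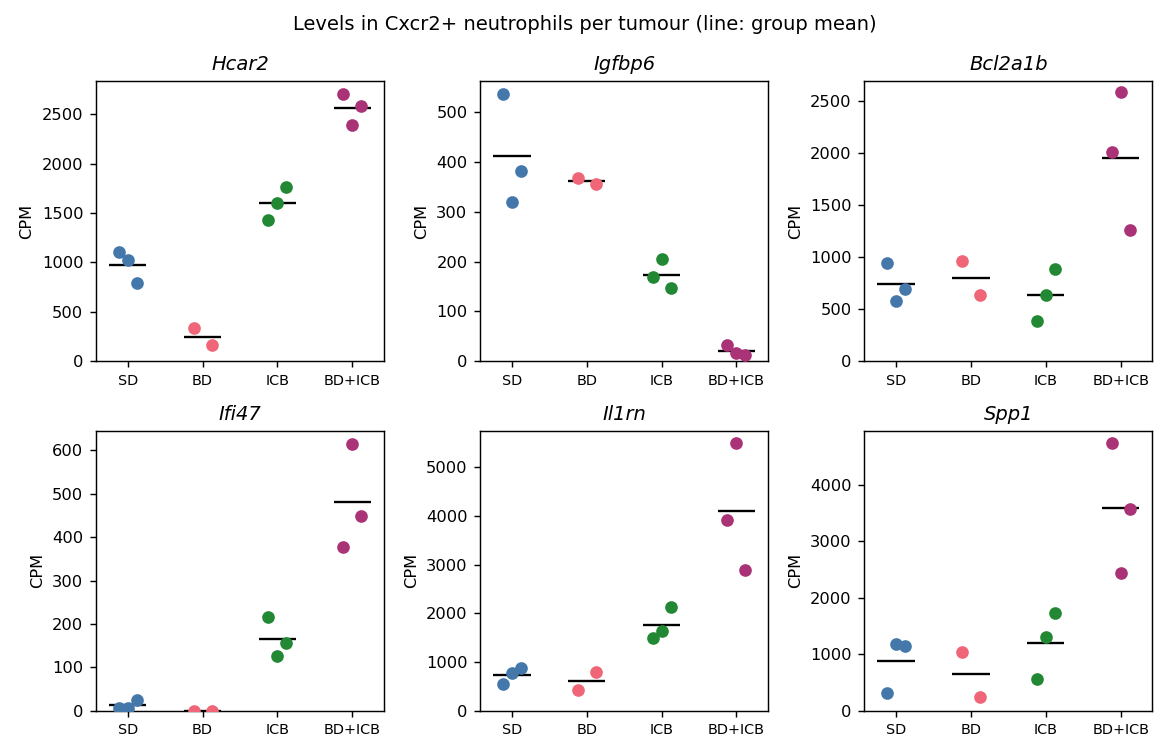
Levels of 6 genes in Cxcr2+ neutrophils, in CPM (vertical axes), per tumour and group (horizontal axes). Each point is 1 tumour and each line a group mean, with 2 tumours in BD. Hcar2 is lowest in BD (159 and 340) and highest in BD+ICB (2392 to 2710), and Igfbp6 is lowest in BD+ICB (11.8 to 31.5).

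Il1a, Cd274 and Tspo had the same sign under both diet contrasts without passing. Il1a, the interleukin-1 form released by dying cells, was at 162, 290 and 195 CPM in SD and 538 and 714 CPM in BD, and at 398, 561 and 986 CPM in ICB and 1197, 2845 and 1264 CPM in BD+ICB. Neither pair of groups overlapped, and the averaged diet effect was 1.47 (SE 0.30, adjusted p = 0.148). It passed with DESeq2 (1.6, adjusted p = 0.00533) and without ICB replicate 3 (1.75, adjusted p = 0.00139) or SD replicate 2 (1.65, adjusted p = 0.0495). Over the 10 alternatives the Il1a effect ran from 1.09 to 1.72 and passed in 4, and it did not pass without any of the other tumours. Cd274 (PD-L1) was at 226, 101 and 138 CPM in SD and 453 and 278 CPM in BD, and its averaged effect was 1.10 (SE 0.26, adjusted p = 0.148). It was 0.17 (adjusted p = 0.953) with the stricter hashtag rule and 1.2 (adjusted p = 0.0118) with DESeq2. Tspo, a mitochondrial outer membrane protein, had an averaged effect of -1.07 (SE 0.25, adjusted p = 0.148). Spp1 (osteopontin), which macrophages also make in large amounts, was at 556, 1300 and 1728 CPM in ICB and 4727, 2441 and 3567 CPM in BD+ICB, with a change of 1.56 (SE 0.64, adjusted p = 0.524), and changed by -0.39 (SE 0.85, adjusted p = 0.983) in BD against SD.

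The marker genes of the class did not pass any diet contrast. Cxcr2 was at 511, 741 and 572 CPM in SD and 340 and 794 CPM in BD, a change of -0.16 (SE 0.36, adjusted p = 0.984), and BD+ICB against ICB was -0.22 (SE 0.27, adjusted p = 0.893). Retnlg varied most of the 5 markers. It was at 3893, 7901 and 941 CPM in ICB and 599, 905 and 1181 CPM in BD+ICB, a change of -2.19 (SE 0.81, adjusted p = 0.468), with 1 ICB tumour inside the BD+ICB range. S100a8, S100a9 and Mmp9 changed by -0.38, -0.53 and 0.50 between ICB and BD+ICB, with adjusted p of 0.826, 0.721 and 0.712. Wide standard errors mean that these values do not show equality.

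Far more genes separated the blockade library from the other. In ICB against SD 52 genes passed (1.76% of those tested), 45 of them raised (1.52%). In BD+ICB against BD 93 passed (3.14%), 84 of them raised (2.84%). There were 29 genes called in both, 55.8% of the first list and 31.2% of the second, 28 raised and 1, Igfbp6, lowered. The comparisons have no tumour in common but share the same pair of libraries, so what blockade did and what the libraries differ in cannot be told apart. The count in ICB against SD was 19 without SD replicate 2, 19 without SD replicate 3, 33 without ICB replicate 2 and 79 without BD+ICB replicate 2, and that in BD+ICB against BD was 47 without BD replicate 2. Lifting the hashtag limit left 16 genes in ICB against SD. Of 39 calls of listed or top genes in that comparison, 8 passed under every alternative that gave a value: Gbp5, Gbp7, Gpc3, Hist1h1c, Ifi204, Nampt, Parp14 and Tap1. Of 54 such calls in BD+ICB against BD, 12 did: Acod1, B2m, Gbp5, Gbp7, H2-K1, Hcar2, Igfbp6, Il1rn, Nlrp3, Psmb8, Samhd1 and Tap1. Of the 39, 19 were lost without SD replicate 2, 22 without SD replicate 3 and 24 with the limit lifted (2 could not be tested there). Of the 54, 27 were lost without BD replicate 2, 20 without BD replicate 3 and 27 with the limit lifted.

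Interferon response genes were among those that rose. Interferon-gamma from T and NK cells acts through gamma-activated sequences (GAS), and type I interferons activate a complex that binds the interferon-stimulated response element (ISRE). Of 15 tested interferon-gamma response genes 10 rose in ICB against SD and all 15 fold changes were positive, with a median of 2.56 against 0.02 over all genes. In BD+ICB against BD 9 of the 15 rose, and the median was 5.08, or 2.97 with genes absent from BD set at the floor of 3 UMIs over the group (50.9 CPM). The median of all genes there was 0.14. In BD+ICB against ICB all 15 were positive with a median of 0.98 (all genes -0.06), but only Ifi47 passed. In BD against SD 12 of 15 were negative and none passed. With the 7 genes absent from BD at the floor the median there was 0.29, so no direction can be read.

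The guanylate-binding proteins, GTPases that attack intracellular pathogens, led the list. Gbp2 was at 136, 71.1 and 116 CPM in SD, 56.6 and 39.7 CPM in BD, 1060, 728 and 630 CPM in ICB and 788, 1923 and 2197 CPM in BD+ICB. The blockade library lay above the other in all tumours, with changes of 2.88 (SE 0.32, adjusted p = 1.6e-06) in ICB against SD and 5.08 (SE 0.61, adjusted p = 2.3e-06) in BD+ICB against BD. Gbp5 and Gbp7 rose by 2.83 and 2.91 in ICB against SD. Both had 0 UMIs in BD and were at least 8.39-fold and 7.81-fold higher in BD+ICB than the floor over the BD group. The Gbp genes are a family of similar copies, and reads may have been split among them. Ifi47 rose by 3.37 (SE 0.45, adjusted p = 2.7e-05) from 6.47, 5.93 and 25.1 CPM in SD. It had 0 UMIs in BD and was at least 8.13-fold higher in BD+ICB. Cxcl10, a chemokine that attracts activated T cells, rose from 51.8, 160 and 59.7 CPM in SD to 878, 342 and 575 CPM in ICB, a change of 2.75 (adjusted p = 0.00198). With the hashtag limit lifted the ICB against SD calls of Gbp2 (adjusted p = 0.150), Ifi47 (0.0977) and Cxcl10 (0.0977) were lost, and in BD+ICB against BD that of Gbp2 (0.192).

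**Figure D4:**
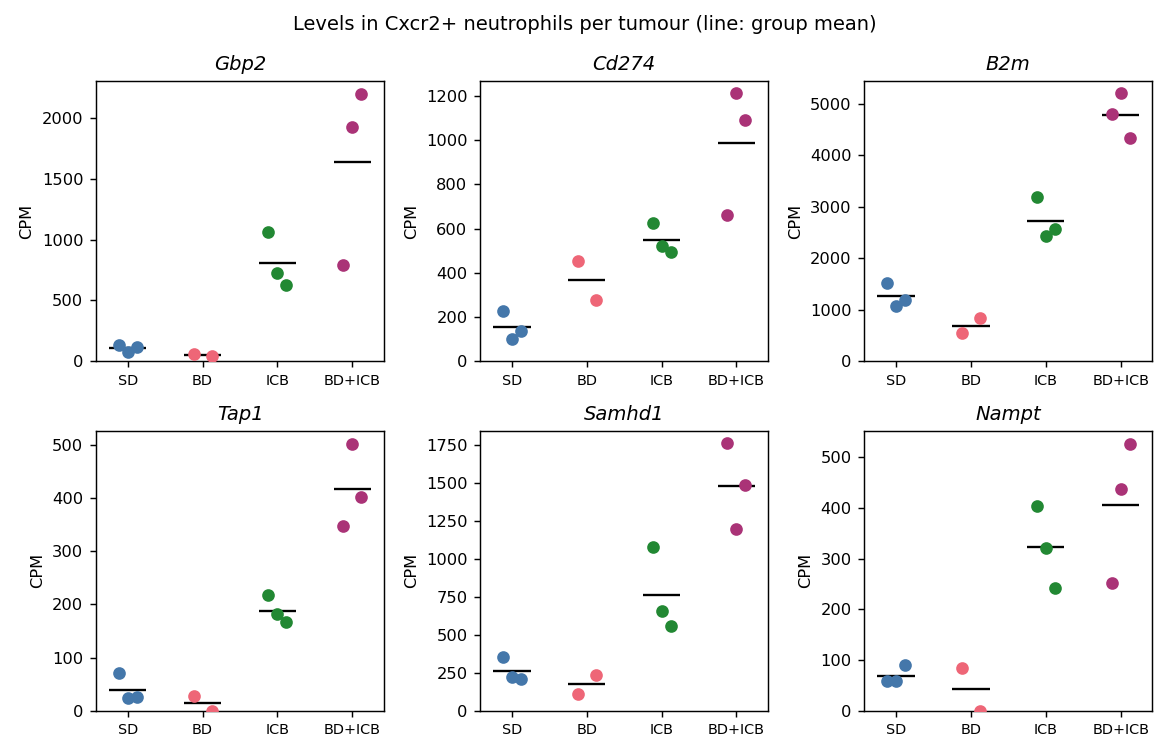
Levels of 6 genes raised in the blockade library, in CPM (vertical axes), per tumour and group (horizontal axes). Each point is 1 tumour and each line a group mean, with 2 tumours in BD. For Gbp2, B2m, Tap1 and Samhd1 every ICB and BD+ICB tumour lies above every SD and BD tumour.

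The promoters of these genes were read from RefSeq sequence (GRCm38.p6), taking 250 bases upstream of the start on either strand. The motif GAAANNGAAA, the core of the ISRE, occurs in 3.46% of 27025 genes' promoters and in 4.56% of those of the genes tested here. It was found in 11 of the 32 promoters matched among the 45 genes raised in ICB against SD (34.4%), in 12 of 66 for BD+ICB against BD (18.2%) and in 8 of 18 for the genes raised in both (44.4%). The shorter GAS motif TTCNNNGAA occurs in 8.13% of all promoters and in 21.9%, 15.2% and 27.8% of these 3 sets. The windows below are shown because they place the ISRE core, and where present GAS, beside 4 of the genes raised in ICB against SD. Capitals mark the motifs, each written 5′ to 3′ on the gene's strand, so that TTTCNNTTTC is the ISRE core on the other strand.
Cxcl10, chr5:92349073-92349122, minus strand: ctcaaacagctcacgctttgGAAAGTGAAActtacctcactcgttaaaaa
Gbp2, chr3:142620584-142620633, plus strand: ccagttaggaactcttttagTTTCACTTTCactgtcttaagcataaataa
Gbp7, chr3:142530210-142530312, plus strand: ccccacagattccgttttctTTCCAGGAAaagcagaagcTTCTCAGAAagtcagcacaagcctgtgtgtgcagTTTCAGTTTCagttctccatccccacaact
Igtp, chr11:58199491-58199551, plus strand: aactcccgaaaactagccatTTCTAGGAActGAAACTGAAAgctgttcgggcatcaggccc
Igtp, an interferon-inducible GTPase, rose by 1.80 (adjusted p = 0.00604) in ICB against SD, and its call was lost without SD replicate 2 (0.0853). Neither motif occurs in the windows of Ifi47, Psmb9 and Igfbp6. A match describes letters and not a bound site.

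Antigen presentation genes moved with the interferon genes, and the lists share members such as Psmb9. Of 15 tested genes of MHC class I presentation 5 rose in ICB against SD (median 1.04, 15 of 15 positive) and 9 in BD+ICB against BD (median 2.67, or 2.01 with floors). In BD+ICB against ICB 15 of 15 were positive with a median of 0.84 and none passed. B2m, the light chain shared by all class I molecules, was at 1507, 1079 and 1187 CPM in SD, 538 and 833 CPM in BD, 3185, 2426 and 2563 CPM in ICB and 4790, 5204 and 4341 CPM in BD+ICB. Its 4 groups did not overlap, and it rose by 1.11 (SE 0.23, adjusted p = 0.00509) in ICB against SD and by 2.82 (SE 0.32, adjusted p = 5.8e-07) in BD+ICB against BD. The first of these calls was lost without SD replicate 2 (adjusted p = 0.0849), without SD replicate 3 (0.101) or with the limit lifted (0.0977). The difference in its diet effects, 1.71 (SE 0.38, adjusted p = 0.0981), did not pass. Tap1, a subunit of the peptide transporter, rose by 2.30 (SE 0.38, adjusted p = 0.00028) in ICB against SD. H2-K1, a class I heavy chain, passed in BD+ICB against BD (2.01, adjusted p = 0.00044) but did not in ICB against SD (0.89, adjusted p = 0.0515), where it passed without any one of 4 tumours (0.0267 to 0.0490) and with DESeq2 (0.0409). Heavy chains are close copies of each other, and reads may be shared among them.

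MHC class II genes were measurable for 5 of 10, and Cd74, the invariant chain, and H2-Aa rose in ICB against SD by 1.56 (adjusted p = 0.0210) and 1.65 (adjusted p = 0.0392). Both calls were lost without SD replicate 2 (0.195 and 0.203), SD replicate 3 (0.114 and 0.286) or ICB replicate 3 (0.122 and 0.1), and that of H2-Aa also without SD replicate 1 (0.0800), ICB replicate 2 (0.0858) or BD+ICB replicate 3 (0.0668). Cd74 is a macrophage and dendritic cell transcript found at 219 CPM in this class, below the 254.8 CPM of the lowest class outside the neutrophils. Its part from free RNA was not tested. Of 22 type I interferon response genes 8 rose in ICB against SD (median 1.13) and 9 in BD+ICB against BD (median 2.47, or 1.55 with floors). Isg15, a ubiquitin-like modifier, rose by 1.12 (adjusted p = 0.0421) and by 3.33 (adjusted p = 6.2e-05). The first Isg15 call was lost without SD replicate 2 (0.270), SD replicate 3 (0.308), any 1 ICB tumour (0.0799 to 0.118) or BD+ICB replicate 3 (0.0616), and the second with the limit lifted (0.147). In BD+ICB against ICB 19 of 22 were positive with a median of 0.50.

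Genes outside the interferon response also rose in the blockade library. Cd274 rose from 101 to 226 CPM in SD to 493 to 627 CPM in ICB, a change of 1.82 (SE 0.29, adjusted p = 0.00024), and it was at 662 to 1212 CPM in BD+ICB. Nampt, which makes the precursor of NAD, rose by 2.12 (SE 0.34, adjusted p = 0.00025). Thbs1, thrombospondin-1, was at 886, 1120 and 1558 CPM in SD and 4362, 3879 and 3594 CPM in ICB, a rise of 1.72 (SE 0.28, adjusted p = 0.00028), and rose by 2.77 (adjusted p = 1.1e-05) in BD+ICB against BD. Acod1, which makes the metabolite itaconate, rose by 1.03 (adjusted p = 0.00727) and 1.90 (adjusted p = 7.1e-05). Il1rn rose by 1.26 (adjusted p = 0.00527) and 2.78 (adjusted p = 7.9e-06), and Il1a by 1.62 (adjusted p = 0.0221) in ICB against SD. Among Fc and inhibitory receptors, Fcgr4 rose by 1.10 (adjusted p = 0.0456) and Lilrb4a by 0.95 (adjusted p = 0.0158). Some of these ICB against SD calls rest on single tumours. Without SD replicate 1 those of Il1rn (0.0644), Il1a (0.113) and Fcgr4 (0.105) were lost, without SD replicate 2 those of Fcgr4 (0.199) and Lilrb4a (0.199), and without SD replicate 3 those of Il1a (0.181), Fcgr4 (0.294) and Lilrb4a (0.113). Leaving out ICB replicate 1 lost Fcgr4 (0.177), and ICB replicate 2 lost Il1a (0.0516), Fcgr4 (0.118) and Lilrb4a (0.0784). Il1a was lost too without ICB replicate 3 (0.0664) or BD replicate 2 (0.0518). With the limit lifted Cd274 (0.0855), Thbs1 (0.0977) and Il1rn (0.150) did not pass, nor did Thbs1 in BD+ICB against BD (0.164). With BD replicate 1 in the fit Thbs1 passed in neither comparison (0.163 and 0.194).

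Igfbp6 was lowered in both comparisons, by a log2 change of -1.25 (SE 0.27, adjusted p = 0.00816) and of -4.50 (SE 0.64, adjusted p = 2.9e-05). The first was lost without SD replicate 1 (0.0894) and with the limit lifted (0.0943). Of the other 6 genes lowered in ICB against SD, Hist1h1c, a linker histone, went from 440, 581 and 525 CPM to 146, 195 and 124 CPM (-1.74, adjusted p = 0.00135). Gpc3, a cell surface proteoglycan, fell by 3.25 on the log2 scale (adjusted p = 0.00527), from a low level of 45.3 to 124 CPM in SD. The rest were Gm10076, Mgp, Ndufa6 and Klhl6. In BD+ICB against BD, Alox5ap, which leukotriene synthesis requires, fell by 1.82 (adjusted p = 0.00136), a call lost without BD replicate 2 (0.150), and Bsg (basigin), Fau, S100a6 and the ribosomal genes Rpl37, Rps9, Rps27a and Rps26 were also lowered. Of 10 alternatives, 5 each lost the calls of Bsg and S100a6, 4 each those of Rps27a and Rps26, and 2 each those of Fau, Rpl37 and Rps9. Chil3 was at 252, 2068 and 1602 CPM in SD and 11.7, 38.3 and 24.9 CPM in ICB. The groups did not overlap, but the change of -5.61 (SE 1.11, adjusted p = 0.0604) did not pass. It passed without SD replicate 1 (0.0120), BD replicate 2 (0.0339) or BD replicate 3 (0.0366).

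By role, the remaining lists held few calls. Among 8 tested chemokine and chemoattractant receptors none passed in ICB against SD and Ccr1 (1.3) and Ccrl2 (1.59) rose in BD+ICB against BD. Among 10 chemokines Cxcl10 rose in both comparisons and Ccl3 in BD+ICB against BD (1.76, adjusted p = 0.0287). The Cxcl10 call in BD+ICB against BD was lost in 6 of 10 alternatives and in 6 of 11 fits that left out 1 tumour. Of 13 cytokine and inflammasome genes Nlrp3 (1.90) and Osm (3.52) rose in BD+ICB against BD besides Il1rn. Without BD replicate 2 the calls of Ccr1 (0.446) and Osm (0.292) were lost, and without BD replicate 3 those of Ccrl2 (0.175) and Ccl3 (0.175). Ccr1 was lost without BD+ICB replicate 3 (0.101) or SD replicate 3 (0.0516), Ccrl2 without SD replicate 1 (0.0529) or without replicate 1 (0.101) or 2 (0.0916) of BD+ICB, and Ccl3 without SD replicate 1 (0.0666) or SD replicate 2 (0.0555). Of 10 tested genes linked with suppressive granulocytes only Cd274 rose in ICB against SD. Arg1 had 69 UMIs in all and was not tested, and Nos2 did not pass (-0.20, adjusted p = 0.896). None of 24 NF-kB early response genes passed in ICB against SD, and in the averaged diet effect 22 of 24 were positive with a median of 0.30 (all genes -0.15), none passing.

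Granule proteins gave no call in any of the 6 contrasts: 0 of 8 primary, 7 of 10 secondary and 11 of 14 late granule genes could be tested. None of the listed glycolytic or oxidative phosphorylation genes passed in ICB against SD, but 2 subunits of respiratory complex I outside those lists did. Ndufa6 fell by 1.31 (adjusted p = 0.0276), a call lost without any one SD tumour (0.0811 to 0.211), ICB replicate 1 (0.0811) or ICB replicate 2 (0.0858), and mt-Nd2, named after its values were seen, rose by 0.93 (adjusted p = 0.0330). Of 21 genes of oxidative phosphorylation 19 were negative there, with a median of -0.66. Of 19 glycolytic genes 18 were negative for the averaged diet effect, with a median of -0.44, and none passed. Of 14 histone deacetylases, a group of which beta-hydroxybutyrate is reported to inhibit some members, 2 were measurable. Of 12 tested genes known to rise under deacetylase inhibitors, none passed a diet contrast and 6 were positive and 6 negative for the averaged effect. Of 21 dissociation and immediate early genes none passed any contrast.

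**Figure D5:**
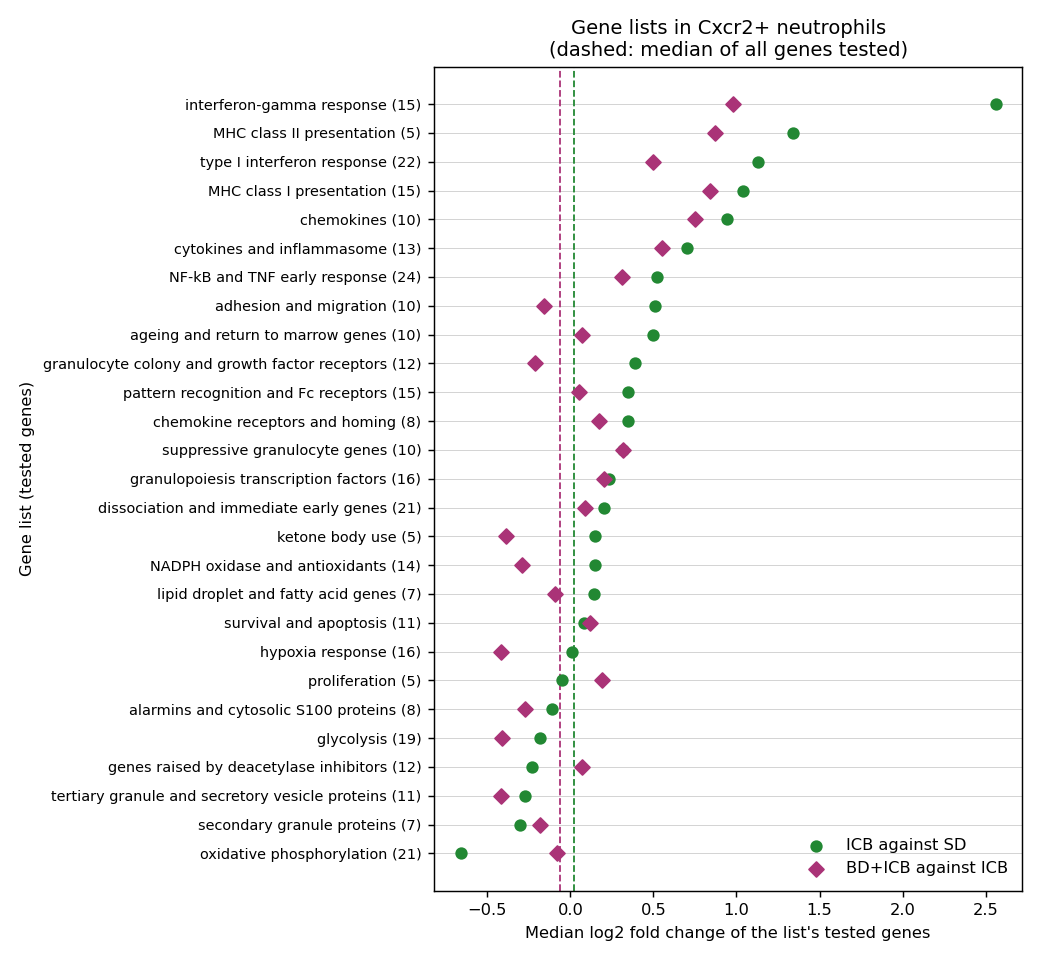
Gene lists in Cxcr2+ neutrophils. Each point is the median log2 fold change of a list's tested genes (horizontal axis), with circles for ICB against SD and diamonds for BD+ICB against ICB, and dashed lines mark the median of all genes tested. The interferon-gamma list stands at 2.56 in ICB against SD and at 0.98 in BD+ICB against ICB. In ICB against SD the type I interferon and MHC class I lists also lie above the dashed line, and the oxidative phosphorylation list lies below it.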

How the data were processed

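Single-cell RNA was sequenced from 12 tumours in 2 hashtag-pooled droplet libraries. The deposited matrices hold whole UMI counts from Cell Ranger 6.1.1, per the file headers, with build mm10 per the submitters' processing notes. The class and tumour of each cell, and a mitochondrial percent, were taken from the deposited tables. Doublet handling is not given in the sources used here. Counts of Cxcr2+ neutrophils were summed per tumour with at least 10 such cells and tested with edgeR 4.0.16 in R 4.3.3 (TMM, filterByExpr, robust quasi-likelihood fit over 4 groups, Benjamini-Hochberg at 0.05), after the script was checked on simulated data. Shares were tested by exact permutation within libraries. Named genes were the class markers, up to 12 calls per direction and contrast by p, up to 4 of each list by level, a fixed set and the 15 most variable genes. Genes at 0 in a group were compared with a floor of 3 UMIs. Alternatives were DESeq2 1.42.0, RLE factors, other filters, cell minimums, hashtag rules, a replicate block and leaving out each tumour. Members and gene lists were chosen with earlier results of these data known.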

Additional observations from a re-analysis of the deposited data

Results flagged for a closer look

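The diet effect on Hcar2 in Cxcr2+ neutrophils differed between the libraries by a log2 value of 2.57 (SE 0.44, edgeR adjusted p = 0.00434): it was lower in the 2 BD tumours of the fit than in all SD tumours and higher in 3 of 3 BD+ICB tumours than in all ICB tumours. BD replicate 1, not in the fit, had 842 CPM before scaling, inside the SD range of 757 to 1053 CPM on that scale, and with it the value was 2.03 (adjusted p = 0.140). The value was 0.77 (adjusted p = 0.990) with the hashtag limit lifted, and the part of hashtag selection was not tested further. In Hilpda+ neutrophils of the same library Hcar2 was at 1540 to 2225 CPM in SD and 2121 to 2308 CPM in BD. The BD range rests on few cells: the BD tumours held 15, 28 and 19 neutrophils, of which 8, 15 and 12 were Cxcr2+.

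The diet effect on the share of neutrophils that are Cxcr2+ was 31.6 percentage points larger under blockade than without it (exact permutation p = 0.0100, adjusted p = 0.0300). It was higher in 3 of 3 BD+ICB tumours than in any ICB tumour. With the hashtag limit lifted the value was 21.6 points (exact permutation p = 0.185). Diets were exchanged inside each library, so these p-values test for no diet effect in either library, not for equal effects.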

How the results depend on the processing

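Depth limits the small groups: BD holds 35 cells and has 2 tumours in the fit, and with 1 of them left out the lone one is assumed to vary like the other groups. The choices of leaving out cells with a C1q UMI and cells over 10000 UMIs were made after seeing the data, and the setting of at least 30 cells per tumour leaves no BD tumour and only replicate 3 of BD+ICB, so its values there compare an arm of 1 tumour. The cause of each change below was not tested. The count in BD against SD, 1 gene, became 0 with DESeq2, RLE factors, at least 5 cells, the stricter hashtag rule, the hashtag limit lifted, without C1q cells or without cells over 10000 UMIs, and 4 with no filter on low counts. The count in BD+ICB against ICB, 4, became 24 with DESeq2, 9 with no filter, 2 with at least 30 cells, 1 with the limit lifted and 8 without C1q cells. The averaged diet count, 1, became 6 with DESeq2, 20 with no filter, 2 with at least 5 cells, 5 with the replicate block, and 0 with RLE factors, the stricter rule, without C1q cells or without cells over 10000 UMIs. The count for the difference in diet effects, 1, became 2 with DESeq2, no filter or no C1q cells, 3 with the stricter rule, and 0 with at least 5 cells or the limit lifted. ICB against SD, 52, became 127 with at least 30 cells and 16 with the limit lifted, and BD+ICB against BD, 93, ran from 66 to 121 over the alternatives. Leaving out 1 tumour gave 0 to 1 genes in BD against SD, 1 to 15 in BD+ICB against ICB (15 without ICB replicate 3, 7 without SD replicate 2), 0 to 5 for averaged diet, 0 to 2 for the difference, 19 to 79 in ICB against SD and 47 to 90 in BD+ICB against BD. It moved the diet difference in the share of deposited cells between -13.6 and -8.83 points, and that in the share of neutrophils between 4.93 and 10.1. Among differences that did not pass, Cxcr2 in BD against SD was 0.39 with the limit lifted, 0.04 without C1q cells, 0.08 without SD replicate 2 and 0.32 without BD replicate 2 (lowest with 1 tumour left out -0.91). Cxcr2 in BD+ICB against ICB was 0.09 with at least 30 cells, S100a8 there was 0.0 without ICB replicate 2 (lowest -0.64), and Nos2 in ICB against SD was 0.22 without SD replicate 2 and 0.29 without ICB replicate 3 (lowest -0.89), where all but the values given as lowest have the opposite sign to the values in the report. Tumours with the same replicate number did not deviate together (median correlation 0.0134, from -0.14 to 0.189 over 15 pairs), so the numbers do not pair them. With the replicate block the counts were 1, 6, 5, 1, 54 and 73 in the order above, with the averaged shares at -11.0 (adjusted p = 0.0938) and 8.08 (adjusted p = 0.605).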
